A study of Cyprinus carpio with 6 samples.

Results

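The 7 ND genes of the mitochondrial genome encode subunits of respiratory complex I, the NADH dehydrogenase that passes electrons from NADH to ubiquinone and pumps protons across the inner membrane. They were chosen by locus in the common carp (Cyprinus carpio) gene tables, and they are 7 of the 40568 genes with a count in at least 1 library. The libraries are RNA-Seq of whole embryos at the mid-blastula stage. In 3 of them the embryos came from sperm kept on ice in an extender for 14 days (the aged-sperm group), and in the other 3 from fresh sperm (the fresh-sperm group). Both kinds of sperm came from the same males, and 1 female gave the oocytes. The males were mature and had been injected with carp pituitary before stripping. How many embryos went into an RNA library, and which male stood behind it, is not given in the sources used here. A p-value therefore covers the spread between these libraries alone, which may be technical.

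Vertebrate mitochondrial DNA is transcribed as long precursors from both strands, which are then cut into messenger, ribosomal and transfer RNAs. Most of its genes lie on one strand, whereas ND6 is transcribed from the other. In humans, ND4L and ND4 remain joined in a shared messenger RNA, and the ND6 messenger lacks the long poly(A) tail of the other ND messengers. The RNA here was enriched with oligo(dT) beads, which hold poly(A) tails. The mitochondria of the early fish embryo come from the oocyte.

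On the RefSeq annotation of assembly ASM1834038v1, the build used by the authors, the 7 loci run along chromosome MT as follows. ND1 (KEF38_p13), at the foot of the membrane arm near the ubiquinone site, spans bases 3779 to 4753. ND2 (KEF38_p12), which resembles bacterial antiporters and takes part in proton pumping, spans 4969 to 6015. ND3 (KEF38_p06), a small subunit near the ubiquinone site, spans 10575 to 10925. ND4L (KEF38_p05), another small membrane subunit, spans 10994 to 11290 and overlaps ND4 by 7 bases. ND4 (KEF38_p04), from 11284 to 12664, and ND5 (KEF38_p03), from 12880 to 14703, are the other antiporter-like subunits. ND6 (KEF38_p02), a membrane subunit, spans 14700 to 15218 and overlaps the end of ND5 by 4 bases. Whether reads were counted by strand is not given in the sources used here, so reads within the overlap of ND5 and ND6 cannot be assigned with certainty. ND4L and ND4 lie on the same strand, so the strand could not assign reads within their overlap.

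The deposited counts summed to between 14993459 and 15632387 per library. Levels are given as CPM, counts scaled to a common library size with TMM factors. On log2 CPM, replicate 3 of each group stood apart on the first principal component, with scores of 53.2 (aged) and 44.0 (fresh) against -28.6 to -15.2 in the other 4 libraries. Cyclins and other blastula and maternal markers (13 of 31 symbols counted) summed to 7204 to 8100 CPM in the aged-sperm group and 7343 to 8357 CPM in the fresh-sperm group. Of 26 markers of differentiated tissues, 4 were counted and their sum did not exceed 0.324 CPM in any library. No pair of libraries agreed within counting noise (chi-square per degree of freedom 5.52 to 9.30).

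Of the ND transcripts, 6 were abundant in these poly(A)-enriched libraries, and ND6 was nearly absent from them. Together the ND genes took 0.337%, 0.347% and 0.507% of all counts in the aged-sperm group, against 0.233%, 0.281% and 0.344% in the fresh-sperm group. The highest fresh library lay between replicates 1 and 2 from aged sperm.

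To compare the ND genes with one another, levels were taken per length. In FPKM, the authors' value that scales fragments by effective length and library size, the order was ND3 at 1634 ± 276, ND4L at 1336 ± 400, ND1 at 1247 ± 291, ND4 at 1159 ± 326, ND5 at 514 ± 144 and ND2 at 330 ± 138 (SD, n = 6 libraries). ND6 was last at 0.447 ± 0.407 FPKM. The subunits of other complexes COX2 (6276 FPKM), COX3 (5856), COX1 (5479), ATP6 (2333) and CYTB (1848) had higher mean FPKM than each ND gene. ND1 exceeded ND4 in FPKM in 6 of 6 libraries, by a ratio of 1.09 ± 0.0781. ND4 exceeded ND5 in 6 of 6, by 2.26 ± 0.125, and ND5 exceeded ND2 in 6 of 6, by 1.61 ± 0.201 (SD). ND3 exceeded ND4L in 5 of 6 libraries, by a ratio of 1.28 ± 0.284, and ND4L exceeded ND1 in 3 of 6, by 1.06 ± 0.109 (SD), so the libraries do not separate these neighbours. The order was read from the same libraries as the ratios, which are therefore a description with no test.

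The place of the 2 shortest ND genes in this order depends on the length used. The effective length, the number of positions from which a fragment of the library's size could arise, was 43.5 to 54.4 bases for ND4L, whose annotated length is 297 bases. For ND3, of 351 bases, it was 82.7 to 96.2, whereas for ND5, of 1824 bases, it was 1540 to 1556. Between libraries the effective length thus varied by 24.8% for ND4L, 16.4% for ND3 and 1.05% for ND5. In CPM per kilobase of annotated length, an alternative added after the data were seen, the order became ND4 at 933 ± 278, ND1 at 898 ± 222, ND5 at 438 ± 129, ND3 at 418 ± 81.1, ND2 at 245 ± 107 and ND4L at 220.1 ± 69.9 (SD, n = 6 libraries). ND1 and ND4 were close on both scales, and on this one ND1 exceeded ND4 in only 3 of 6 libraries. ND4 lay above ND5, and ND5 above ND2, on both. ATP8, a still shorter mitochondrial gene of 165 bases, was given an effective length of 0 and 0 FPKM in the 6 libraries. Its counts summed to 50 in the aged-sperm group and 35 in the fresh-sperm group.

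**Figure D1:**
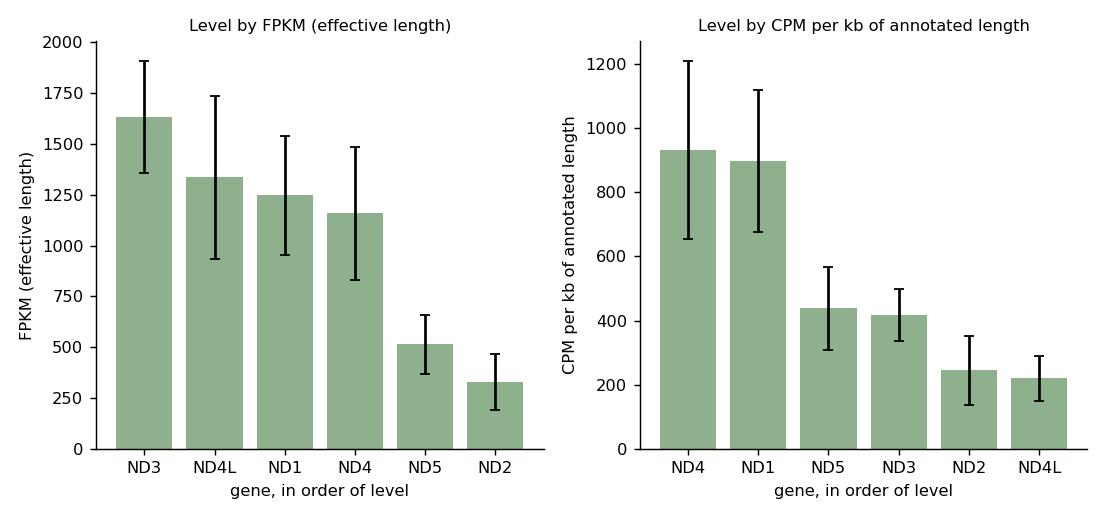
Mean level of 6 ND genes over the 6 libraries, as FPKM with the effective length (left) and as CPM per kilobase of annotated length (right); bars start at 0 and error bars are SDs. ND3 and ND4L lead at 1634 and 1336 FPKM on the left, and stand at 418 and 220.1 CPM per kilobase on the right.

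The adjacent genes ND4L and ND4 were counted in a ratio that varied little between libraries. For each ND4 count there were 0.0524, 0.0459 and 0.0520 ND4L counts in the aged-sperm group, and 0.0551, 0.0455 and 0.0531 in the fresh-sperm group. The groups overlap, with a mean of 0.0501 ± 0.00363 in the aged-sperm and 0.0513 ± 0.00509 in the fresh-sperm group (SD, n = 3 each; exact permutation test on the log2 ratio, two-sided, p = 0.6). In FPKM the ratio of ND4L to ND4 was 1.15 ± 0.12 over the 6 libraries, and per annotated length it was 0.236 ± 0.0186. ND5 relative to ND4 also varied little, at 0.443 ± 0.0245 in FPKM (SD, n = 6), whereas ND2 relative to ND1 ran from 0.209 to 0.345 in FPKM, the highest value being that of replicate 3 from aged sperm.

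The study asked what storage of sperm does to the offspring, and the comparison here is of the ND level in embryos of both groups. The 6 ND genes that passed the filter on low counts had higher mean CPM in the aged-sperm group, with fitted folds of 1.16 to 1.53. None of them was called: in the quasi-likelihood test of edgeR, 0 of 6 reached an adjusted p under 0.05, as did 0.0146% of the 27342 tested genes. DESeq2 also called 0 of the 6, and 0.182% of the 31812 genes to which it gave an adjusted p. At an unadjusted p under 0.05, edgeR gave 1 of the 6, ND1, against 3.36% of all tested genes, and DESeq2 gave 0, against 1.82% of all genes with a p. Under alternatives the edgeR count was lowest at 0 of 6, as without replicate 3 from aged sperm, beside 4.26% of all tested genes. It was 4 of 6 without replicate 3 of both groups (4.11%), and 5 of 6 with a block for the replicate number (5.74%). In bulk RNA, fewer or more mitochondria per embryo and less or more RNA per mitochondrion cannot be told apart.

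ND1 had 911, 852 and 1252 CPM in the aged-sperm group, against 629, 706 and 904 CPM in the fresh-sperm group. The groups overlap only through replicate 3 from fresh sperm, which lies above replicate 2 from aged sperm. The log2 fold change of ND1 was 0.43 (standard error 0.18; edgeR adjusted p = 0.9998), and it ran from 0.24 to 0.59 when single libraries were left out.

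ND4 had 1219, 1312 and 1954 CPM in the aged-sperm group, against 849.8, 1000.3 and 1393 CPM in the fresh-sperm group. Again replicate 3 was the highest of each group, and the fresh one lay above replicates 1 and 2 from aged sperm. The log2 fold change of ND4 was 0.47 (standard error 0.23; edgeR adjusted p = 0.9998).

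ND4L, the small subunit encoded just before ND4, had 63.9, 60.3 and 101.6 CPM in the aged-sperm group, against 46.9, 45.5 and 74.0 CPM in the fresh-sperm group. Replicate 3 from fresh sperm was the second highest of the 6. For ND4L the log2 fold change was 0.44 (standard error 0.26; edgeR adjusted p = 0.9998).

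ND5 had 774, 834 and 1204 CPM in the aged-sperm group, against 489, 673 and 824 CPM in the fresh-sperm group. Only replicates 1 from aged sperm and 3 from fresh sperm were out of order between the groups. The change in ND5 was 0.50 on the log2 scale (standard error 0.23; edgeR adjusted p = 0.9998), with 0.28 to 0.69 on leaving out single libraries.

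ND2 had 209.8, 244 and 477 CPM in the aged-sperm group, against 157, 215 and 235 CPM in the fresh-sperm group. Replicate 3 from aged sperm stood far above the rest, and the other 5 libraries overlapped. In ND2 the groups thus differed by 0.61 on the log2 scale (standard error 0.31; edgeR adjusted p = 0.9998), and 0.17 without that library.

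ND3 had 130.5, 137 and 204 CPM in the aged-sperm group, against 129.8, 142 and 136 CPM in the fresh-sperm group. Apart from replicate 3 from aged sperm, the libraries of both groups lay within a narrow band. In ND3 the groups differed by 0.21 on the log2 scale (standard error 0.16; edgeR adjusted p = 0.9998), and by -0.02 without that library.

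**Figure D2:**
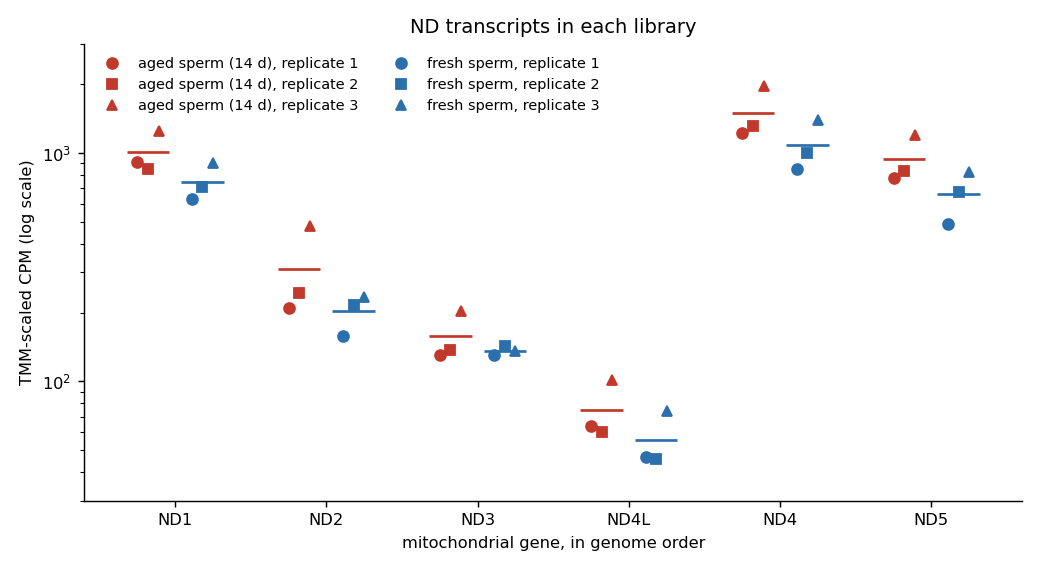
TMM-scaled CPM (log axis) of 6 ND genes in each library, the aged-sperm group left and the fresh-sperm group right of each pair; horizontal lines are group means of 3 libraries. Replicate 3 from aged sperm is the highest point for all 6 genes shown (1954 CPM for ND4), and the groups overlap in each.

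For 0 of these 6 genes did the libraries of the groups separate, where they did for 8.56% of all tested genes. Replicate 3 from aged sperm was the highest library for 6 of 6, and replicate 1 from fresh sperm the lowest for 5 of 6 (replicate 2 from fresh sperm for ND4L). Counting error was below the spread within each group, and came nearest to it for ND3 in the fresh-sperm group (2.21% against 4.54% of the mean). For ND4 the 3 libraries from aged sperm varied by 26.8% of their mean, and counting alone gives 0.663%. For ND4L these were 30.4% and 2.95%. Replicate 3 of each group, with the high score on the first component, had the highest CPM of its group in ND1, ND2, ND4L, ND4 and ND5. An alternative added after the data were seen left replicate 3 out of both groups. Its log2 fold changes were 0.40 for ND1, 0.45 for ND4, 0.43 for ND4L, 0.47 for ND5, 0.29 for ND2 and -0.02 for ND3. What sets replicate 3 apart was not tested.

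Across the 6 libraries, log2 CPM of the 15 pairs of these genes correlated at Pearson r of 0.75 to 0.98, as a description over libraries that share their scaling and their groups. ND3 followed the others least, with its r to ND1, ND4L, ND4 and ND5 between 0.75 and 0.78. Its r to ND2 was 0.94. ND4 was closest to ND5 and to ND1, at 0.98 each. By rank the likeness was looser in several pairs. Spearman rho was 0.26 for ND3 with ND4L, 0.43 for ND1 with ND3, 0.6 for ND1 with ND2, and 0.94 for ND4 with ND5. Replicate 3 from aged sperm, the highest library for 6 of 6 genes, weighs on each Pearson r.

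ND6 stood apart from the other 6. It had 0, 1 and 4 counts in the aged-sperm group, and 1, 1 and 3 counts in the fresh-sperm group. A count of 0 in the first of these libraries allows up to 3 counts, or 0.188 CPM. Both groups summed to 5 counts, a ratio of 0.982 per library size (exact binomial 95% interval 0.226 to 4.27, covering counting error only), so that a difference of a few fold was not detectable with so few counts. ND6 did not pass the filter on low counts and has no edgeR test. Over the 6 libraries, its 10 counts compare with 72638 for the neighbouring ND5, and its FPKM was 0.0869% of that of ND5. As the RNA was enriched for poly(A) tails, these values do not give the level of ND6 in the embryos. Whether the enrichment lowered the ND6 counts was not tested.

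The ND genes taken as a whole showed the same pattern as the single genes. Their summed level was 3308, 3441 and 5193 CPM in the aged-sperm group, against 2302, 2783 and 3566 CPM in the fresh-sperm group. Replicate 3 from fresh sperm lay above replicates 1 and 2 from aged sperm, so the groups overlap. The mean log2 difference was 0.46, or 1.37-fold, and did not pass the test (two-sided exact permutation test, p = 0.3; the smallest p that 3 against 3 libraries allow is 0.1). It ran from 0.25, without replicate 3 from aged sperm, to 0.62, without replicate 3 from fresh sperm. With replicate 3 left out of both groups, an alternative added after the data were seen, it was 0.41. Between libraries of the same replicate number, the log2 difference (aged minus fresh) was 0.52, 0.31 and 0.54. An exact sign-flip test over these gave p = 0.25, the smallest it can give.

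The 6 other protein-coding genes of the mitochondrial genome were also higher on average and also not called. Their log2 fold changes were 0.38 for COX1, 0.14 for COX2 and 0.36 for COX3, the core subunits of cytochrome c oxidase, 0.26 for ATP6 and 0.49 for ATP8 of the ATP synthase, and 0.36 for CYTB of complex III. Their median was 0.36, beside 0.45 for the ND genes that were tested and -0.000895 for all tested genes. ATP8 rested on only 10 to 23 counts per library, and the standard error of its change was 0.36. The summed CPM of these 6 differed by 0.32 on the log2 scale (exact permutation test, p = 0.3).

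**Figure D3:**
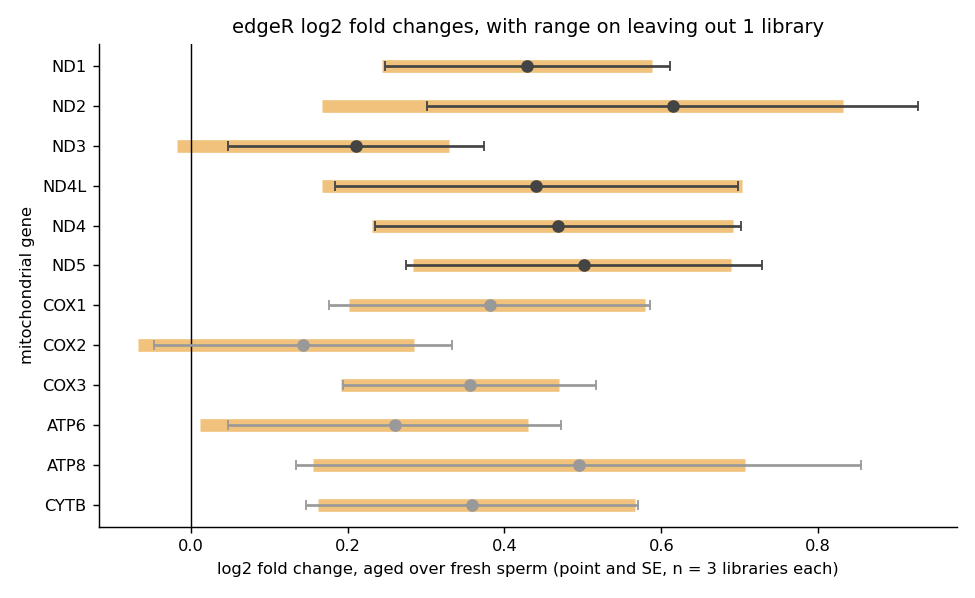
edgeR log2 fold change of 12 mitochondrial genes, aged-sperm over fresh-sperm group (n = 3 libraries each), with its standard error as whiskers and, as pale bars, the range when single libraries were left out. The points run from 0.14 (COX2) to 0.61 (ND2), and the pale bars of ND3 and COX2 cross 0.

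The share of ND genes in the mitochondrial protein-coding counts does not depend on the library size. It was 17.8%, 19.3% and 19.8% in the aged-sperm group, against 17.0%, 17.9% and 17.8% in the fresh-sperm group. Replicate 1 from aged sperm lay within the range of the fresh libraries, and the other 2 lay above it. The difference of 1.41 percentage points, 19.0 ± 0.996% in the aged-sperm group against 17.6 ± 0.501% in the fresh-sperm group (SD, n = 3 each), gave p = 0.2 in the two-sided exact permutation test. In FPKM the shares were 22.2%, 22.5% and 23.3% in the aged-sperm group and 21.1%, 21.8% and 21.6% in the fresh-sperm group, which did not overlap, at the smallest p the exact permutation test allows, 0.1. The FPKM share leans on ND3 and ND4L, the ND genes of highest mean FPKM. Their effective lengths varied between libraries by 16.4% (ND3) and 24.8% (ND4L), and the part of this in the FPKM share was not tested.

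ND4, ND1 and ND5 made up most of the counts of the 6 abundant ND genes in both groups. ND4 held 37.5 ± 0.658% of them in the aged-sperm group and 37.3 ± 1.59% in the fresh-sperm group. ND1 held 25.5 ± 1.82% in the aged-sperm and 26.0 ± 1.14% in the fresh-sperm group, and ND5 held 23.6 ± 0.561% in the aged-sperm and 22.9 ± 1.5% in the fresh-sperm group (SD, n = 3 each). ND4L held 1.88 ± 0.112% in the aged-sperm group and 1.92 ± 0.243% in the fresh-sperm group. These small differences changed sign under at least 1 alternative.

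In ND3 and ND2, single libraries stood away from the rest of their group. ND3 took 3.95%, 3.99% and 3.93% of the ND counts in the aged-sperm group, against 5.64%, 5.11% and 3.81% in the fresh-sperm group. The libraries from aged sperm lay close together, and replicate 3 from fresh sperm lay below them whereas its 2 companions lay above. ND2 took 6.34%, 7.09% and 9.18% in the aged-sperm group, against 6.83%, 7.73% and 6.60% in the fresh-sperm group, so that replicate 3 from aged sperm lay above the range of the fresh libraries and replicate 1 from aged sperm below it. No share passed the test between the groups (exact permutation tests over 6 genes, p = 0.4 to 1, adjusted p = 0.96 to 1).

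**Figure D4:**
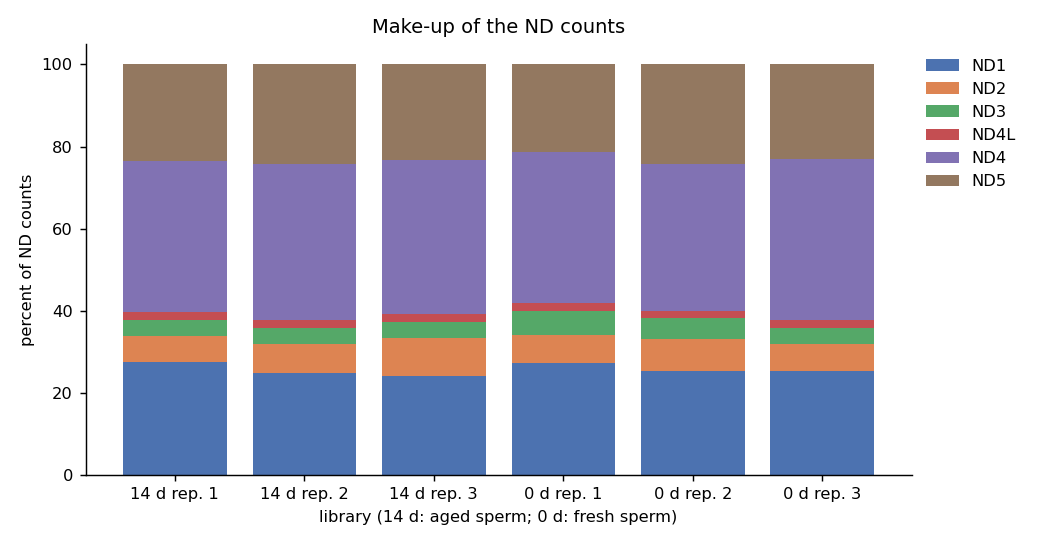
Percent of the ND counts held by each of 6 ND genes, 1 stacked bar per library, the 3 from aged sperm (14 d) left and the 3 from fresh sperm (0 d) right. ND4, ND1 and ND5 make up most of each bar, and ND2 is widest, at 9.18%, in replicate 3 from aged sperm.

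Most complex I subunits are encoded in the nucleus, together with the assembly factors that build the enzyme. Of 149 symbols searched for these lists, spelling variants and duplicate copies included, 27 had a count and 22 were tested. None of the 22 was called, and none had an unadjusted p under 0.05 in edgeR, where 3.36% of all tested genes had. DESeq2 gave an adjusted p to 24 of the 27 and called 0 of them, against 0.182% of all genes with an adjusted p. Their log2 fold changes were positive in 10 and negative in 12, with a median of -0.00469.

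Of 21 symbols searched for the nuclear core subunits, only 2 had a count, so most of the core set is not covered here. These were ndufs1 and ndufs3, both of the matrix arm, of which ndufs1 carries iron-sulfur clusters. ndufs1 averaged 27.6 ± 2.39 CPM in the aged-sperm group and 27.5 ± 1.81 CPM in the fresh-sperm group (SD, n = 3 each). ndufs3 averaged 6.65 ± 0.835 CPM in the aged-sperm group and 6.9 ± 0.26 CPM in the fresh-sperm group. Of the 10 accessory subunits tested, the most counted were ndufb8, with 51.4 ± 7.25 CPM in the aged-sperm group and 53.6 ± 4.85 CPM in the fresh-sperm group, ndufb2 and ndufa11. Their log2 fold changes were -0.06 for ndufb8, -0.01 for ndufb2 and -0.06 for ndufa11. Among 10 assembly factors, ndufaf7, a methyltransferase acting on a core subunit, averaged 58.2 ± 2.13 CPM in the aged-sperm group and 57.4 ± 3.06 CPM in the fresh-sperm group. The log2 fold change was 0.09 for ndufaf1 and -0.12 for timmdc1, which both serve the assembly of the membrane arm.

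The nuclear genes that transcribe mitochondrial DNA and process its RNA were taken as further lists. Of 34 symbols, 17 had a count and 14 were tested. None of these was called and none had an unadjusted p under 0.05 in edgeR, beside 0.0146% and 3.36% of all tested genes. The log2 fold change was positive in 10 and negative in 4, and it was positive in 49.7% of all tested genes. polrmt, the mitochondrial RNA polymerase, averaged 31.2 ± 3.61 CPM in the aged-sperm group and 28.5 ± 2.84 CPM in the fresh-sperm group (SD, n = 3 each; log2 fold change 0.13). The log2 fold change was 0.05 for mterf2, of the mitochondrial transcription termination factor family, and 0.13 for ssbp1, the single-strand DNA-binding protein. elac2, which cuts the 3′ ends of transfer RNAs, averaged 59.1 ± 10.2 CPM in the aged-sperm group and 56.99 ± 5.28 CPM in the fresh-sperm group. hsd17b10, a component of mitochondrial ribonuclease P, had a log2 fold change of 0.05, and pde12, which trims mitochondrial poly(A) tails, had -0.05.

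**Figure D5:**
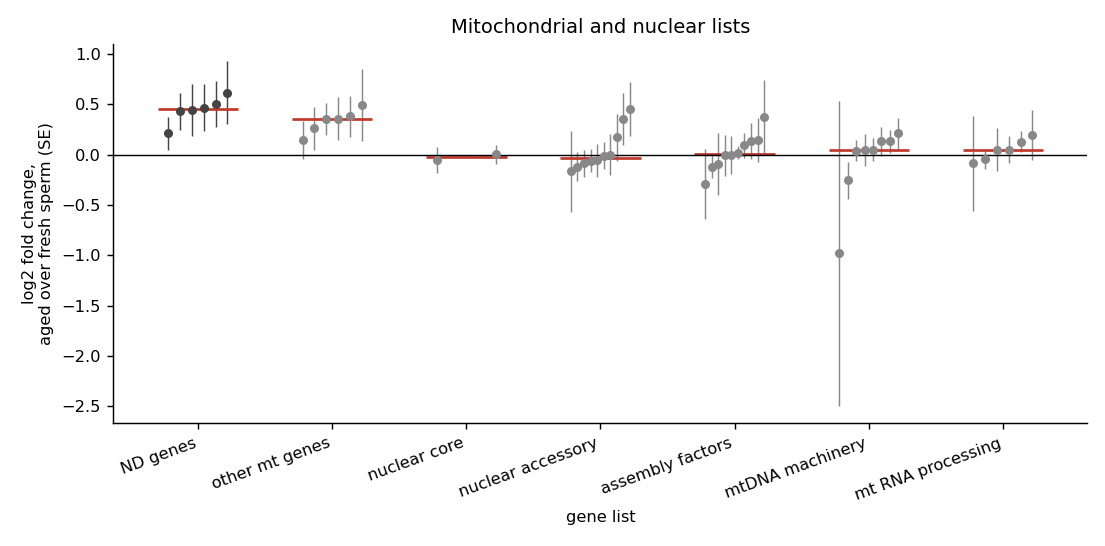
edgeR log2 fold change with standard error, aged-sperm over fresh-sperm group (n = 3 libraries each), of each tested gene in 7 lists; red lines are list medians. The ND genes have a median of 0.45 and the other mitochondrial genes 0.36, while the medians of the 5 nuclear lists lie between -0.03 and 0.05. The nuclear core list holds only 2 genes.

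Log2 CPM was compared with the summed ND level over the 6 libraries for 15289 genes with a mean log2 CPM of at least 3. The mitochondrial protein-coding genes were left out. The 5 that followed it most closely were zgc:113278, the assembled loci XLOC_036295 and XLOC_032924, LOC109107480, and spg7, a subunit of a protease of the mitochondrial inner membrane. Both assembled loci are absent from the reference annotation, so whether they are nuclear is not known. The Pearson r of the 5 genes was 0.987 to 0.998, and 54 of the genes compared reached 0.95. zgc:113278 averaged 31.4 ± 2.78 CPM in the aged-sperm group and 27.99 ± 2.29 CPM in the fresh-sperm group, and spg7 averaged 151 ± 5.04 CPM in the aged-sperm group and 144 ± 3.74 CPM in the fresh-sperm group (SD, n = 3 each). These genes were picked for their likeness from many, over few libraries that share their scaling. Among the other mitochondrial genes, COX1 followed the summed ND level at 0.985 and COX2 at 0.911.

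Sperm markers were searched in the same tables because the groups differ in the sperm used. Of 18 symbols, 6 were counted, with sums of 29.0 to 31.0 CPM in the aged-sperm group and 32.8 to 37.3 CPM in the fresh-sperm group. The sum was nearly that of spata18, named for spermatogenesis and active in mitochondrial quality control in mammals. spata18 had 27.6 ± 1.14 CPM in the aged-sperm group and 33.3 ± 2.72 CPM in the fresh-sperm group. Its log2 fold change was -0.27 (standard error 0.083, edgeR unadjusted p = 0.014, edgeR adjusted p = 0.9998). Its libraries did not overlap between the groups, as in 8.56% of all tested genes, and 3.36% of all tested genes had an unadjusted p under 0.05 in edgeR. gapdhs, a sperm glycolytic enzyme in mammals and the other marker tested, averaged 1.57 ± 0.44 CPM in the aged-sperm group and 1.32 ± 0.393 CPM in the fresh-sperm group (log2 fold change 0.24, standard error 0.33). tekt2, tekt3, spag6 and tsga10, of the sperm flagellum, were each under 0.35 CPM on average in both groups.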

How the data were processed

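RNA-Seq libraries of 6 carp mid-blastula samples were grouped by their GEO titles. Per the paper's methods, reads were mapped with HISAT2, StringTie assemblies of the libraries were merged with Cuffmerge, and Bowtie2 served for alignment to the reference. The submitters' processing notes name HISAT2, StringTie, Bowtie2 and DESeq2, without versions. The authors deposited estimated counts per gene, FPKM values and effective lengths, under RSEM labels. The other 18 per-library columns, and the authors' own DESeq2 comparison of 83 genes (fold changes and p-values), were not used here. The reference lists 22 transfer RNA and 2 ribosomal RNA genes on chromosome MT, and 0 of them are in the count tables used.

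Counts were rounded and tested with edgeR 4.0.16 (R 4.3.3; TMM, filterByExpr, quasi-likelihood) on 27342 genes, with Benjamini-Hochberg adjustment and a threshold of 0.05. Standard errors were derived from the F statistic (the absolute change over its square root), and CPM values are TMM-scaled. Single values were compared with two-sided exact permutation tests (with the replicate block, exact sign-flip tests). Alternatives were DESeq2 1.42.0, RLE factors, total counts, library sizes without mitochondrial genes, a robust fit, no filter, at least 10 counts in every library, a replicate block, single libraries left out, and FPKM against counts. The fits were tested on simulated data. Other steps used scipy 1.17.1, numpy 2.4.6, pandas 2.3.3 and matplotlib 3.10.9 under Python 3.11.15.

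The members and gene lists were chosen with earlier results of these data known. Named were the mitochondrial genes and, of each nuclear list, the called or else the 3 most counted members. Also named were the 5 genes most like the summed ND level outside the mitochondrial protein-coding genes (mean log2 CPM of 3 or more, prior count 2). spata18 and the other sperm markers were named after their values were seen.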

Additional observations from a re-analysis of the deposited data

How the results depend on the processing

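No ND gene and no nuclear complex I gene was called under any alternative tried. Some of these were added for the nuclear genes after the data were seen. Few genes of any kind were called. The edgeR alternatives called from 0 of 27342 (replicate block) to 9 of 27884 (without replicate 3 from fresh sperm), and DESeq2 called 58. An absence of calls among so few genes therefore carries little weight. The alternatives reuse the same 6 libraries, so their fits are not independent of one another or of the main fit. Over 90 alternative fits of the 6 tested ND genes, the log2 fold change was positive in 88 and ran from -0.02 to 0.83. It changed sign only for ND3, which ran from -0.017 (without replicate 3 from aged sperm) to 0.33 when single libraries were left out and was -0.021 without replicate 3 of both groups. The summed ND level differed by 0.40 to 0.47 (log2) under other scalings and FPKM.

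With the replicate block, the log2 fold changes were 0.47 for ND4, 0.44 for ND4L, 0.51 for ND5, 0.43 for ND1, 0.54 for ND2 and 0.18 for ND3, with an adjusted p in edgeR of 0.332 (ND4, ND4L) to 0.903 (ND3), and 5 of 6 had an unadjusted p under 0.05, beside 5.74% of all tested genes. Deviations of same-numbered libraries correlated at -0.00237, 0.0375 and 0.0886 over the 27342 tested genes, and at 0.101, 0.103 and 0.272 over the 15300 of higher expression, where each library from aged sperm correlated best with its own number (over all tested genes replicate 1 did not). Within the 3 numbers the summed ND level differed by 0.52, 0.31 and 0.54 (log2, aged minus fresh; exact sign-flip test, p = 0.25, the smallest it can give), and 5 of the 6 genes, not ND3, were higher in each. As the labels do not tie numbers to males, the numbers were not taken as pairs. If same-numbered libraries do share a male, the unpaired tests of the main results leave that pairing out.

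The differences in the shares of the ND counts (aged minus fresh, in percentage points) changed sign as follows. With FPKM the differences were 0.562 for ND1 and 0.896 for ND4L. With single libraries left out they ran from -1.58 to 0.134 for ND1, -0.336 to 1.08 for ND2, -0.175 to 0.0451 for ND4L, -0.446 to 1.11 for ND4 and -0.0483 to 1.43 for ND5. Without replicate 3 of both groups they were -0.563 for ND2 and 0.00652 for ND4L. The mean log2 ratio with counts in place of FPKM was -3.77 for ND4L to ND1, -0.54 for ND1 to ND4, -4.31 for ND4L to ND4 and -3.10 for ND3 to ND4. Per annotated kilobase these ratios were -2.05, -0.038, -2.09 and -1.13, which follows from the length used. For the 6 tested genes, counting error was below the spread between the 3 libraries of each group. Any part of that spread that same-numbered libraries share counts as error in the unpaired tests. The comparison of ND6 was limited by its few counts, and the reason for these was not tested.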
